A study of Mus musculus with 2 samples.

Results

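Dividing progenitors of the mouse duodenal crypt with little of the stem cell gene Olfm4 were taken as 593 cells, 244 in library 2 and 349 in library 1, of 12756 barcodes in all. They are called Olfm4-low progenitors in G2 and mitosis here. Of the 12756 barcodes, 5557 held at least 500 genes and at least 5000 UMIs (unique molecular identifiers, each counted as 1 captured RNA molecule) with at most 25% of them mitochondrial, and the cells were drawn from these. Members were chosen by measured UMI counts. A cell was a member when Ube2c, Ccnb1, Cdc20 and Hmmr together gave at least 10 UMIs, Lgr5 gave 0 and Olfm4 was under 0.3% of UMIs. Limits of 2% for Lyz1 with Defa24, 0.5% for Clca1, Zg16 and Fcgbp and 0.2% for Apoa1, Apoa4 and Apoc3 were set against Paneth, goblet and mature absorptive cells, and Ptprc had to be 0.

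The series profiled single cells of duodenal crypts from wild-type mice in groups labelled ES and NT, and its title speaks of stress that lasts and of stem cells that age. The letters are not spelled out in the labels. Each group is 1 library made from crypts pooled from 5 animals, so there is no replicate and no test can be made of a difference between the groups. Crypts were freed with EDTA on ice and broken up with TrypLE, and the labels name no sort. For both groups the labels give 30 minutes in EDTA and 5 minutes in TrypLE. No label says which of the numbered libraries is ES and which is NT, so each value below is given by library number and no direction is drawn for the treatment.

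Progenitors just above the stem cell zone, known as transit-amplifying cells, divide several times while they move up the crypt and begin to express genes of absorptive or secretory cells. Entry into mitosis is driven by cyclin B bound to Cdk1. The anaphase promoting complex, a ubiquitin ligase, then removes cyclin B and securin so that chromosomes separate. Transcripts of this machinery build up during G2 and mitosis and are low in G1. Many of their promoters are known to carry a cell cycle genes homology region (CHR), bound by MuvB complexes, and CCAAT boxes, bound by NF-Y.

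Shown are the promoters of the 4 marker genes and of the next 4 genes ranked by members over cells with few cell cycle transcripts. The ranking took genes in the promoter table and left out a chromosome. The promoters set the letters of these motifs beside the genes whose transcripts mark the cells. They are RefSeq sequences on GRCm38.p6, 150 bases each, from 120 before to 30 after the annotated start, written 5′ to 3′ on the gene's strand. Capitals mark a CHR (TTTGAA or TTCGAA) or CCAAT on either strand, so that TTCAAA and ATTGG mark the opposite strand. The Ube2c stretch lies at chr2:164769809-164769958 on the plus strand, Ccnb1 at chr13:100786457-100786606 on the minus strand, Cdc20 at chr4:118437314-118437463 on the minus strand and Hmmr at chr11:40733408-40733557 on the minus strand. Nusap1 lies at chr2:119618178-119618327 on the plus strand, Anln at chr9:22389177-22389326 on the minus strand, Prc1 at chr7:80294331-80294480 on the plus strand and Ckap2l at chr2:129297183-129297332 on the minus strand.
Ube2c: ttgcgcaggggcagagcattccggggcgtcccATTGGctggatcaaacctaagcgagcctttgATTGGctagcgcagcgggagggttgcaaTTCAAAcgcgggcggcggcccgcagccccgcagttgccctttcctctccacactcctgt
Ccnb1: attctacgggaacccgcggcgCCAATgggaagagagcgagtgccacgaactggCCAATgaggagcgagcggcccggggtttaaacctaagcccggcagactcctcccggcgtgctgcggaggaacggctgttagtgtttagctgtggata
Cdc20: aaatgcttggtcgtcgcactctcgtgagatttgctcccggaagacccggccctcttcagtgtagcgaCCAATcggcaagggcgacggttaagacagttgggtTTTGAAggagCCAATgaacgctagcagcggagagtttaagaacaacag
Hmmr: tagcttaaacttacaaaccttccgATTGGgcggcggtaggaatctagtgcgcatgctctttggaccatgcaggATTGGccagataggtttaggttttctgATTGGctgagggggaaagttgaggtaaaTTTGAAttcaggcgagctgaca
Nusap1: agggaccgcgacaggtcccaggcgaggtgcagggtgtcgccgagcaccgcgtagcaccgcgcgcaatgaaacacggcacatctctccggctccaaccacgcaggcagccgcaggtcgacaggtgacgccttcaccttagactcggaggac
Anln: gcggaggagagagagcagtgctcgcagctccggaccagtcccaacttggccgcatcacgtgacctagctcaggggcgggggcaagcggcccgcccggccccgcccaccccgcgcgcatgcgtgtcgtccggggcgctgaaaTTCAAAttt
Prc1: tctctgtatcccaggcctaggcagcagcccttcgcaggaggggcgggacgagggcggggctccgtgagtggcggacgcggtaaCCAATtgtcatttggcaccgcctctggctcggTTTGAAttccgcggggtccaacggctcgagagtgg
Ckap2l: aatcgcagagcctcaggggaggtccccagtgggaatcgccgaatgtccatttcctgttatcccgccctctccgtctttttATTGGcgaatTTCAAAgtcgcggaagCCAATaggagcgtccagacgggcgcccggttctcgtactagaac

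In Ube2c the CHR began at position -29, counted from the start, with CCAAT boxes on the opposite strand at -88 and -57. Cdc20 had its CHR at -18 and CCAAT boxes at -53 and -8, and Prc1 a CHR at -5 with a CCAAT box at -37. Ckap2l had its CHR at -30 between CCAAT boxes at -40 and -14, whereas the CHR stood after the start in Hmmr, at 9, and in Anln, at 22. The Ccnb1 stretch held CCAAT boxes at -99 and -67 and none of the CHR letters searched, and that of Nusap1 held neither. Over the 300 bases from 250 before to 50 after the start, 60 of 104 promoters of genes on the mitotic lists held a CHR, or 57.7%, against 19.4% of all 27025 promoters of that length. Within 60 bases before to 50 after the start the shares were 49.0% and 5.87%. A CCAAT box was found in 66.3% of the mitotic promoters and 37.9% of all promoters, and both motifs in 47.1% and 7.70%. Genes of DNA replication and S phase had a CHR in 4 of 29 promoters (13.8%), but a CCAAT box in 58.6%, near the mitotic share. Stem cell genes had a CHR in 0 of 14 promoters and a CCAAT box in 7. Among genes at least 8-fold higher in members than in cells with few cell cycle transcripts, in both libraries, 69 of 112 promoters held a CHR (61.6%), and so did 21 of the 42 that were on no gene list (50.0%). These are matches of letters, and the sets with an 8-fold difference were picked through the cells' mitotic transcripts.

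The cell cycle label rests on the marker genes of the rule. Ube2c, the ubiquitin-conjugating enzyme of the anaphase promoting complex, had a median of 15.5 UMIs per member in library 2 and 15 in library 1. Ccnb1, cyclin B1, had a median of 3 in each, Cdc20, which activates the anaphase promoting complex, 4 and 3, and Hmmr, a protein of spindle microtubules, 4 in each. All 4 markers were found together in 194 of 244 members of library 2 and in 260 of 349 of library 1, and no member rested on 1 marker alone. The sum of the 4 ran from 10 through a median of 27 to 99 UMIs in library 2, and from 10 through 24 to 94 in library 1. These genes chose the cells, so their levels are a description. Mki67 and Top2a, which were not used and mark cycling cells in general, had UMIs in 99.2% and 97.5% of members of library 2 and in 99.1% and 98.0% of those of library 1. Of the members, 29.5% in library 2 and 43.3% in library 1 also reached the sum of S phase transcripts used here to define S phase cells.

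At the threshold the cells formed a continuum, with no gap in the sum of the markers. Members with a sum of 10 to 12 had 555 UMIs of Top2a per 1000000 (CPM, from UMIs summed over the cells of a library) in library 2 and 573 in library 1. Cells just outside, with sums of 7 to 9, had 312 and 374 CPM. Mki67, the Ki-67 antigen of cycling cells, was at 742 and 669 CPM just inside and 559 and 542 CPM just outside. The cells just outside the rule thus carried lower levels of the same transcripts, not a lack of them.

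**Figure D1:**
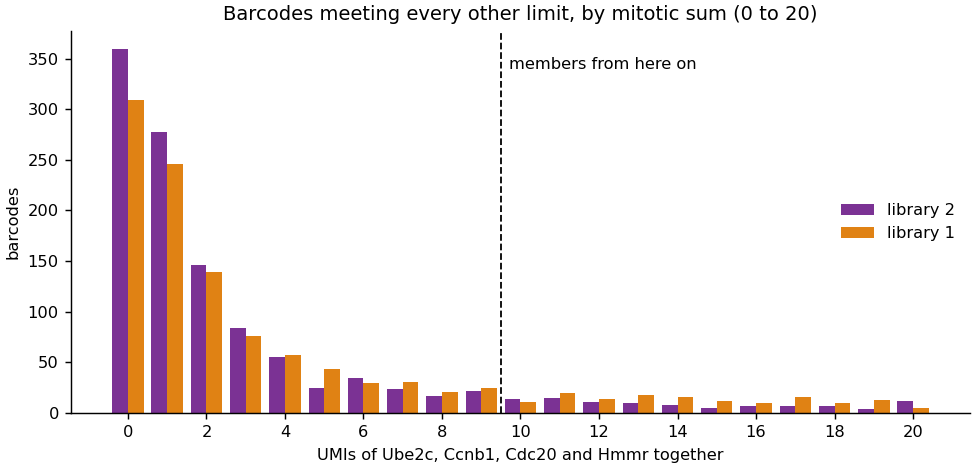
Number of barcodes (y axis) by the summed UMIs of Ube2c, Ccnb1, Cdc20 and Hmmr (x axis) among those that met every other limit, library 2 left of library 1 in each pair; sums over 20 are not drawn. The bars fall off from 359 and 309 barcodes at a sum of 0 and run on past the threshold of 10 with no gap.

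The cells were epithelial. Epcam, an adhesion protein of epithelia, was found in every member, at 2083 CPM in library 2 and 2043 CPM in library 1. Of the B and plasma cell list, 4 of 8 genes had a UMI in members of each library, at 5.59 and 2.75 CPM in sum; Ms4a1 of B cells was found in 9 members of library 2 and 3 of library 1. Of the myeloid list, 3 of 9 genes had a UMI in library 2 and 4 of 9 in library 1, at 17.2 and 12.7 CPM in sum. Of the stromal and endothelial list, 1 of 10 and 4 of 10 had one, at 0.1997 and 0.655 CPM. Cd79a of B cells, Jchain of plasma cells, Lyz2, Csf1r and C1qa of myeloid cells and Col1a1 of stroma were among the genes at 0 UMIs in both libraries, which allows up to 1.23% of members of library 2 and 0.860% of library 1 with such a UMI. Of the 12 lymphocyte genes, 11 had a UMI in members of each library, Ptprc being at 0 by the rule. The list summed to 118 CPM in library 2 and 85.9 CPM in library 1, and in single members it ran from 0 to 930 and 292 CPM. In lymphocyte barcodes, taken with UMIs of Ptprc and of Cd3g or Cd3e and with no UMI minimum, the list's median was 62115 CPM per cell in library 2 and 88267 CPM in library 1.

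Transcripts of Paneth and goblet cells in the typical member were near the level found in lymphocytes, which should lack them, and are read as background RNA. The Paneth list had a median of 4010 CPM per member in library 2 and 2844 CPM in library 1, against 3632 and 2624 CPM per lymphocyte barcode. The goblet list had medians of 1449 and 800 CPM in members and 1248 and 649 CPM in lymphocyte barcodes. The enteroendocrine list had medians of 142 and 62.3 CPM in members, against 156 and 65.0 CPM in lymphocyte barcodes with at least 5000 UMIs and 0 in both libraries with no UMI minimum. A few members stood far from this level. The goblet list reached 19182 CPM in a member of library 2 and 23334 CPM in one of library 1. The tuft list, with medians of 40.2 and 0 CPM per member, reached 9430 and 3086 CPM. Of 548 Chgb UMIs in library 1, 76.5% lay in 10 members and 263 in 1 of them, whereas in library 2 the 10 highest members held 24.6% of 224. Neurod1, a transcription factor of enteroendocrine cells, was found in 8 members of library 2 and 10 of library 1, with up to 43 and 23 UMIs. Agr2, a protein of secretory cells, had 62.2% of its 1814 UMIs in 10 members of library 1. The rule set no limit on enteroendocrine or tuft genes, and doublets were not called, so whether these barcodes hold 1 cell each was not tested.

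The members were 8.74% of the barcodes passing the filters in library 2 (95% exact interval 7.72 to 9.85) and 12.6% in library 1 (11.4 to 13.9). Intervals, here and below, cover the error of counting alone. Any barcode with a marker sum of at least 10 made up 17.8% of library 2 and 25.4% of library 1, so members were 49.0% and 49.7% of these. Within the lineage limits, members held 58.7% of mitotic cells in library 2 and 57.3% in library 1, and cells with Lgr5 and at least 0.3% Olfm4 held 21.6% and 19.4%. The lower share in library 2 therefore went with a lower share of mitotic barcodes as a whole. The shares of these classes among mitotic cells differed by less than the intervals. Cells with Lgr5 but under 0.3% Olfm4 held 4.33% (2.58 to 6.75) in library 2 and 6.90% (5.015 to 9.21) in library 1. These intervals overlap, but neither holds the other library's share. Members had a median of 20410 UMIs and 5146 genes in library 2 and 20055 UMIs and 4992 genes in library 1. Median mitochondrial shares were 8.88% and 9.88%. Cell recovery, treatment and the pooled animals cannot be told apart in these shares.

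The first comparison asked how dividing progenitors differ from dividing stem cells, taken as cells with the same filters and marker sum but with Lgr5 and at least 0.3% Olfm4 (90 in library 2, 118 in library 1). Members had low levels of stem cell transcripts and more absorptive transcripts than dividing stem cells, while most mitotic genes differed by less than the fold used. A gene is called apart when the ratio of CPM is at least 1.5 either way and its exact 95% interval leaves out 1, in both libraries, among genes with at least 100 UMIs over both populations in each library. Of 7621 genes, 483 were apart and higher in members (6.34%) and 564 apart and lower (7.4%). With 1 library a group this is a rule of size and not a test, and since Lgr5 and Olfm4 chose the cells, the whole contrast is a description.

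All 18 stem cell genes that could be measured, of 20 listed, were apart and lower in members, with a median log2 ratio of -2.08, against all-gene medians of -0.02 in library 2 and -0.06 in library 1. Lgr5 and Olfm4 are 2 of these and were used to choose the cells. Ascl2, the transcription factor of the stem cell state, had 7.19 CPM in members of library 2 and 7.86 CPM in those of library 1, against 155 and 136 CPM in dividing stem cells. Its ratio was 0.046 (0.032 to 0.066) in library 2 and 0.058 (0.043 to 0.076) in library 1. Axin2, a target and inhibitor of Wnt signalling, had 46.1 and 47.9 CPM in members against 276 and 277 CPM in dividing stem cells. Slc12a2, a sodium, potassium and chloride cotransporter of the crypt base, had 420 and 418 CPM in members against 2123 and 2214 CPM. The summed levels were lower in members of both libraries, while single cells overlapped. Ascl2 had a UMI in 28 of 244 members of library 2 and 43 of 349 of library 1, against 79 of 90 and 99 of 118 dividing stem cells, and the stem cell list reached 6401 and 7308 CPM in single members, against a lowest 4122 and 5261 CPM in dividing stem cells. Smoc2, Sox9, Cd44 and Cdca7 were likewise apart, at 0.213 to 0.357 of the level in dividing stem cells.

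The 10 lowest genes by the bound nearest to 1 were Lgr5, Ascl2, Olfm4, Sfrp5, Sorbs2, Msi1, Nav1, Igfbp4, Gkn3 and Prelp. Sfrp5, a secreted Wnt antagonist, had 3.19 and 12.2 CPM in members against 82.1 and 115 CPM in dividing stem cells. Msi1, an RNA-binding protein of stem and progenitor cells, had 6.79 and 7.20 CPM against 105 and 65.1 CPM. Wnt targets followed, with 6 of 10 measured genes apart and lower, none higher, and a median log2 ratio of -1.42; 5 of the listed genes are also on the stem cell list. Myc, the growth-promoting transcription factor, had 48.3 and 41.8 CPM in members and 137 and 126 CPM in dividing stem cells. Ccnd1, which encodes cyclin D1, was not apart, at 120 and 90.2 CPM in members and 100.1 and 98.5 CPM in dividing stem cells. Notch1, Notch2 and Lfng of the Notch list were apart and lower, out of 6 measured, with Notch1 at 16.6 and 16.9 CPM in members against 72.0 and 73.7 CPM.

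Absorptive genes were higher in members, with 18 of 27 measured genes of the list apart and higher, none lower, and a median log2 ratio of 1.53. Sis, the brush border sucrase-isomaltase, had 229 CPM in members of library 2 and 249 CPM in those of library 1, against 51.4 and 33.8 CPM in dividing stem cells. Alpi, intestinal alkaline phosphatase, had 99.0 and 147 CPM against 19.6 and 21.4 CPM. Dmbt1, a secreted scavenger receptor of mucosa, had 3496 and 2967 CPM against 1058 and 1018 CPM. In single cells the list had a median of 8817 CPM per member in library 2 and 7802 CPM in library 1. Dividing stem cells had 4365 and 3628 CPM, and lymphocyte barcodes with no UMI minimum 1662 and 1073 CPM. With at least 5000 UMIs, lymphocyte barcodes had 1662 and 5008 CPM, the latter above dividing stem cells of library 1. The absorptive transcripts of members were thus above both the stem cell level and the background.

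The 10 highest genes were Cdkn2b, Chp2, Rbp7, Gsdmc4, Car4, Enpep, St3gal4, Gsdmc2, Apol10a and Mall. Cdkn2b, the p15 inhibitor of the kinases Cdk4 and Cdk6, stood first. It had 219 UMIs in members of library 2 and 226 in those of library 1, or 43.7 and 29.6 CPM, against 5 and 2 UMIs, or 2.65 and 0.857 CPM, in dividing stem cells. Its ratio was 16.5 (6.97 to 51.4) in library 2 and 34.5 (9.45 to 287) in library 1. Car4, a membrane carbonic anhydrase, had 232 and 265 CPM in members against 38.7 and 45.8 CPM in dividing stem cells, a ratio of 5.99 (4.73 to 7.70) and 5.78 (4.76 to 7.09). Enpep, a brush border aminopeptidase, had 134 and 103 CPM against 23.3 and 15.0 CPM. Gsdmc2 and Gsdmc4 are close paralogues whose reads may be split between them. All 10 were higher in both libraries, which the ranking required, so the shared direction is not a separate result.

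Class II histocompatibility genes, which present peptides to CD4 T cells, were lower in members, with 4 of 5 apart and a median log2 ratio of -1.10. Cd74, the invariant chain, had 187 and 76.3 CPM in members of library 2 and library 1, against 399 and 163 CPM in dividing stem cells. H2-Ab1, a class II beta chain, had 100.4 and 50.9 CPM against 245 and 91.2 CPM. Both populations were higher in library 2 than in library 1, and the ratio of members to dividing stem cells for Cd74 was 0.468 in each library.

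**Figure D2:**
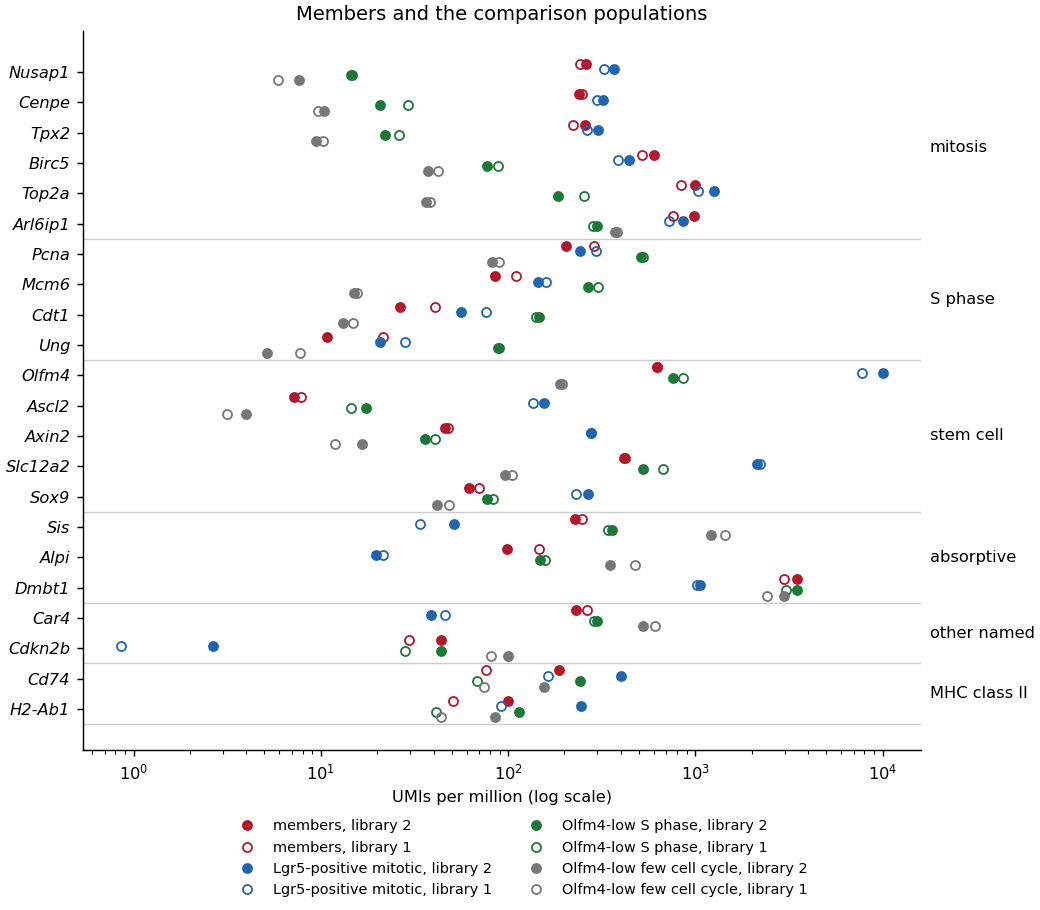
UMIs per 1000000 (x axis, log scale) of genes named in the text or on its lists (rows) in members, dividing stem cells, Olfm4-low S phase cells and Olfm4-low cells with few cell cycle transcripts; filled points are library 2 and open points library 1. Members sit near dividing stem cells for mitotic genes, far below them for Ascl2 (7.19 and 7.86 against 155 and 136), and between them and non-cycling cells for Sis and Alpi.

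The mitotic lists had medians slightly lower in members than in dividing stem cells, and most of their genes were not apart. Both populations were chosen by the same marker sum of at least 10 UMIs, so near levels on these lists were partly set by that choice. The 8 mitotic lists hold 127 genes, all with at least 1 UMI in members. Of 123 measured here, 0 were apart and higher (6.34% of all genes were) and 13 apart and lower (7.4%). The list medians lay between -0.44 and -0.08 on the log2 scale, against all-gene medians of -0.02 in library 2 and -0.06 in library 1. The anaphase promoting complex list had the median nearest to that of all genes. The 13 mitotic kinesins, motors of spindle and chromosome movement, were all lower, with a median log2 ratio of -0.44 and 1 apart, Kif18a. Kif11, the motor that pushes spindle poles apart, had 161 and 150.4 CPM in members against 231 and 200.5 CPM. Stmn1, which destabilises microtubules, had 410 and 428 CPM against 731 and 705 CPM, and Tubb5, a beta tubulin, 367 and 379 CPM against 761 and 631 CPM. Not every gene was lower. Birc5, survivin of the chromosomal passenger complex, had 599 and 521 CPM in members against 442 and 384 CPM, a ratio of 1.36 in each library that misses the fold used. Cdk1, the kinase of mitotic entry, was near equal, at 322 and 277 CPM against 283 and 259 CPM.

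Genes of DNA replication gave a like picture, with 29 of 34 lower in members in both libraries, 5 apart and a median log2 ratio of -0.42. Hells, a chromatin remodeller of dividing cells, had 62.3 and 75.8 CPM in members against 120 and 130 CPM in dividing stem cells. Cdt1, which licenses replication origins, had 26.6 and 40.7 CPM against 56.1 and 76.3 CPM. Pcna, the sliding clamp of DNA polymerase, was not apart, at 205 and 286 CPM against 243 and 295 CPM.

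The second comparison set members against progenitors in S phase, which met the same Lgr5, Olfm4, lineage and Ptprc limits with a marker sum of at most 2 and at least 10 UMIs of Mcm3, Mcm5, Mcm6 and Pcna (83 in library 2, 105 in library 1). Mitotic genes were higher in members, and the genes that license and start replication were lower. Of 7368 genes, 240 were apart and higher (3.26%) and 96 apart and lower (1.3%). On the mitotic lists 98 of 121 measured genes were apart and higher, none lower, in a contrast that the rule itself used. Nusap1, which bundles spindle microtubules, had 262 and 242 CPM in members against 14.7 and 14.6 CPM in S phase cells. Cenpe, a kinetochore motor, had 240.4 and 247 CPM against 20.7 and 29.1 CPM.

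Of the replication list, 15 of 36 measured genes were apart and lower in members, none higher, with a median log2 ratio of -0.59. Of all genes measured, the lowest in members were Ung, Cdt1, Cdc6, Mcm6, Mcm3, Mcm4, Hells, Slfn9, Ccne1 and Zfp367, of which Slfn9 and Zfp367 are not on that list and Mcm3 and Mcm6 chose the S phase cells. Ung, the uracil DNA glycosylase, had 10.8 and 21.6 CPM in members against 88.1 and 89.5 CPM in S phase cells. Ccne1, cyclin E1 of the entry into S phase, had 17.0 and 20.6 CPM against 62.8 and 57.6 CPM. Not every gene of the list was lower. Tyms, thymidylate synthase, had 126 and 144 CPM in members against 86.1 and 93.4 CPM, and Gmnn, geminin, which blocks a second licensing, had 99.0 and 112 CPM against 104 and 103 CPM.

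Absorptive genes differed less at this border, with 5 of 27 apart and lower in members, none higher, and a median log2 ratio of -0.34. The median changed sign under other settings, at 0.74 with an S phase sum of at least 20 and 0.05 without the cells in the top 10% of UMIs, so no direction is drawn for the list. Reg1, a secreted lectin, had 187 and 339 CPM in members against 439 and 684 CPM in S phase cells. Cdkn2b was close in both, at 43.7 and 29.6 CPM in members and 44.1 and 28.0 CPM in S phase cells. Myc was apart and lower, at 48.3 and 41.8 CPM against 89.5 and 73.3 CPM. Histone transcripts were higher in members, with 5 of 6 measured apart. H1f4, a linker histone, had 39.1 and 38.9 CPM in members against 8.68 and 10.6 CPM, but most such transcripts lack a poly(A) tail, and H1f0 on that list is a histone made outside S phase.

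The last population was Olfm4-low cells with a marker sum of at most 2 and at most 3 UMIs of the S phase genes (491 in library 2, 392 in library 1), with median depths of 12853 and 12489.5 UMIs. It holds enteroendocrine cells, with Chgb at 2575 and 1174 CPM, and members were lower for 10 of 10 measured enteroendocrine genes and 8 of 8 tuft genes, which cannot be told apart from that makeup. Of 8592 genes, 1247 were apart and higher in members (14.5%) and 927 apart and lower (10.8%). The rule used this contrast too. The mitotic lists had 114 of 121 genes apart and higher, and all 34 measured replication genes were apart and higher, with a median log2 ratio of 2.68. Prc1, which cross-links microtubules between separating chromosomes, had 131 and 104.5 CPM in members against 3.81 and 2.37 CPM. Bub1, a spindle checkpoint kinase, had 109.6 and 103 CPM against 2.89 and 3.16 CPM.

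Absorptive genes were lower in members here, with 26 of 30 measured apart and lower, 1 apart and higher, and a median log2 ratio of -1.85. Sis had 229 and 249 CPM in members against 1217 and 1443 CPM, and Anpep, aminopeptidase N, had 357 and 237 CPM against 1662 and 1399 CPM. For Sis the 4 populations stood in 1 order in both libraries, with dividing stem cells lowest, then members, S phase progenitors and non-cycling cells. The ratio of members to S phase progenitors was 0.636 in library 2 and 0.733 in library 1, so the fold used was reached in library 2 and not in library 1. Dmbt1 departed from this order. It had 3496 and 2967 CPM in members, 3477 and 3055 CPM in S phase progenitors and 2983 and 2402 CPM in non-cycling cells.

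Members varied among themselves along the mitotic share. They were split into 4 bins of equal size by the 4 markers' share of UMIs, from low to high, which uses the genes of the rule. From the lowest to the highest bin the replication list had 3192, 2712, 2102 and 1528 CPM in library 2, and 3460, 3039, 2553 and 1875 CPM in library 1. Pcna had 340, 236, 155 and 68.9 CPM in library 2 and 392, 334, 233 and 130 CPM in library 1, so its level in the lowest bin was about 3 times that in the highest in library 1 and more in library 2. Arl6ip1, a membrane-shaping protein of the endoplasmic reticulum, went the other way, at 493, 774, 1182 and 1559 CPM in library 2 and 397, 660, 881 and 1280 CPM in library 1. Cenpa, the centromere histone, had 217, 348.5, 447 and 553 CPM in library 2 and 178.5, 259, 385 and 454 CPM in library 1.

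The histone list also rose, with 882, 972, 1073 and 1089 CPM in library 2 and 797, 937, 1018 and 1095 CPM in library 1. The absorptive, interferon-induced, goblet and enteroendocrine lists had no such order in both libraries. The absorptive list stood between 9174 and 10475 CPM in library 2 and between 7880 and 9089 CPM in library 1. Interferon-induced genes stood between 700.5 and 796.5 CPM in library 2 and between 239 and 303 CPM in library 1. The goblet list had 2127, 1755, 1540 and 1833 CPM in library 2 and 1837, 1930, 1078 and 911 CPM in library 1, and the enteroendocrine list 193, 153, 156 and 156 CPM in library 2 and 116, 187.5, 344 and 61.5 CPM in library 1. Top2a reached its level in the middle bins, with 679, 1055, 1181 and 1107 CPM in library 2 and 525, 796, 1127 and 1051 CPM in library 1. The lowest bin was the deepest, with a median of 22530 UMIs in library 2 and 25042 in library 1, against 19357 and 17437 in the highest, and the part of depth was not tested.

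**Figure D3:**
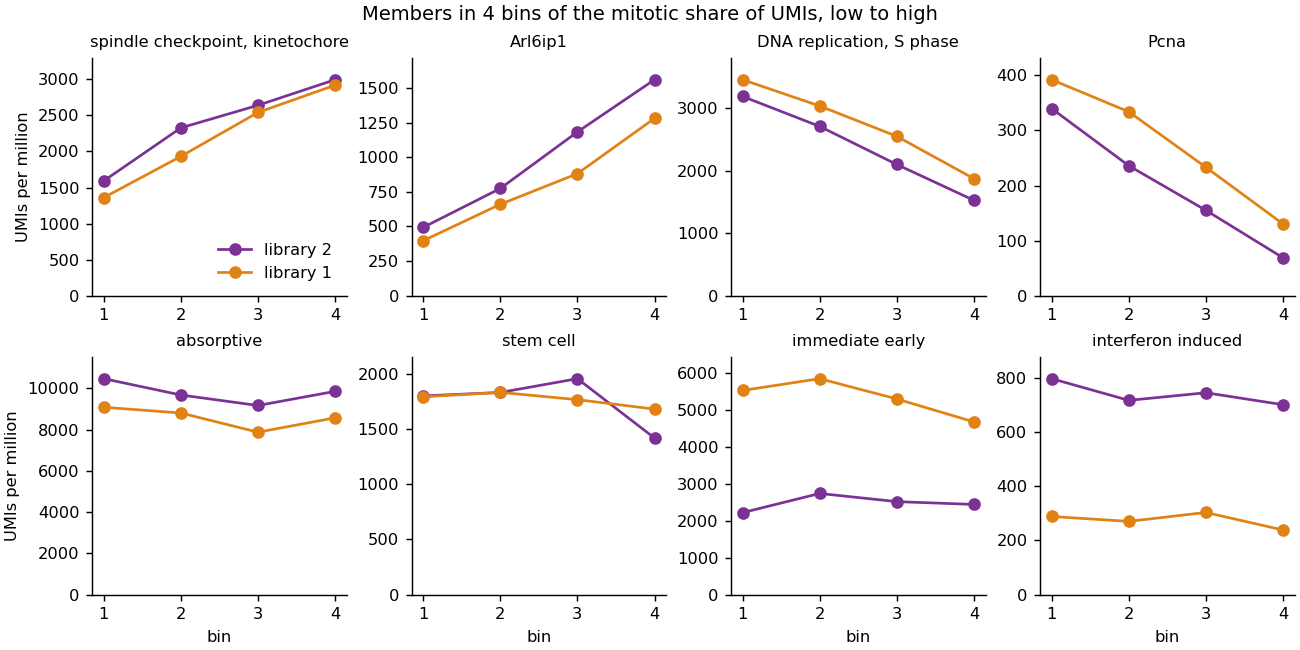
UMIs per 1000000 (y axes, from 0) of gene lists and of Arl6ip1 and Pcna in members split into 4 bins of the markers' share of UMIs (x axis, low to high), library 2 and library 1 as lines. The kinetochore list and Arl6ip1 climb, the replication list declines to 1528 and 1875 in the top bin, and the absorptive, immediate early and interferon lists stay near level.

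Many members carried transcripts of both S phase and mitosis. At least 10 UMIs of Mcm3, Mcm5, Mcm6 and Pcna were present in 72 members of library 2 (29.5%, 23.9 to 35.7) and in 151 of library 1 (43.3%, 38.0 to 48.6). With each member thinned to 5000 UMIs, 4 members of each library still had at least 10 (1.64% and 1.15%). S phase progenitors thinned alike had 19.3% and 25.7%. Of the thinned members, 27.9% of library 2 and 20.6% of library 1 had none of these UMIs. Among dividing stem cells thinned alike the shares with none were 18.9% and 18.6%. The members' intervals of the shares with none overlap, at 22.3 to 33.9% and 16.5 to 25.3%. Those of the shares with at least 10 UMIs do not overlap before thinning, at median depths of 20410 and 20055 UMIs. After thinning they do, at 0.448 to 4.14% and 0.313 to 2.91%.

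The last comparison was between the libraries within members, over 5007646 UMIs in library 2 and 7637140 in library 1. Members of library 2 had more transcripts of interferon-induced and antigen presentation genes and fewer immediate early transcripts, while the cell cycle machinery differed little. Of 8759 genes with at least 100 UMIs, 213 were higher in library 2 by this rule (2.43%) and 135 lower (1.54%), with a median log2 ratio of 0.06. A ratio is that of library 2 to library 1 and compares these pools, not the treatments.

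Interferon-induced genes were apart and higher in library 2 for 14 of 15 measured, of 26 listed, with a median log2 ratio of 1.69. Ifi44, an interferon-induced protein, had 190 UMIs or 37.9 CPM in members of library 2 and 18 UMIs or 2.36 CPM in those of library 1, a ratio of 16.1 (9.91 to 27.8). Rtp4, a chaperone of membrane receptors, had 35.3 CPM in library 2 and 4.85 CPM in library 1, a ratio of 7.30 (5.10 to 10.7). Oasl2, of the oligoadenylate synthetase family, had 103 CPM in library 2 and 26.6 CPM in library 1. Ifi35, at 41.5 and 30.0 CPM, was the measured gene that did not reach the fold used. In single members the list ran from 129 through a median of 620 to 3914 CPM in library 2, and from 0 through 236 to 1908 CPM in library 1, so the libraries overlapped cell by cell.

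The same direction was found in every comparison population. Interferon genes were apart and higher for 5 of 7 measured in dividing stem cells, where 2.37% of genes were, for 3 of 5 in S phase progenitors (2.51%) and for 18 of 20 in non-cycling cells (4.48%). Ifi44 had a ratio of 9.14 in dividing stem cells, 13.8 in S phase progenitors and 9.94 in non-cycling cells, with intervals that overlap that of members. Lymphocyte barcodes without a UMI minimum had 22.6 CPM of Ifi44 in library 2 and 0 in library 1, and their interferon list had medians of 1804 and 865 CPM per cell. Free RNA that every barcode receives was not tested as a part of these ratios.

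Class I and class II antigen presentation genes went with them. Class II genes were apart and higher in library 2 for 5 of 5 measured, with a median log2 ratio of 0.98, and class I genes for 7 of 12, with a median of 0.63. Cd74 had 187 CPM in members of library 2 and 76.3 CPM in those of library 1, a ratio of 2.44 (2.20 to 2.71). H2-K1, a class I heavy chain, had 704 and 449 CPM, and Tap1, which carries peptides to class I molecules, 82.5 and 42.0 CPM. Class I genes are similar to each other in sequence, and reads of the H2-Q genes may be split between copies. Outside these lists, Nos2, inducible nitric oxide synthase, had 38.7 and 8.12 CPM, a ratio of 4.77.

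Immediate early genes, which are induced within minutes of a stimulus, were apart and lower in library 2 for 19 of 20 measured, with a median log2 ratio of -1.28. Fos, a subunit of the AP-1 transcription factor, had 438 CPM in members of library 2 and 1047 CPM in those of library 1, a ratio of 0.418 (0.399 to 0.439). Atf3, a stress-induced transcription factor, had 40.3 and 181 CPM, a ratio of 0.223 (0.191 to 0.258). Dusp1, a phosphatase that turns off MAP kinases, had 27.0 and 112 CPM, and Egr1, a zinc finger transcription factor, 312 and 778 CPM. Jund, at 404 and 553 CPM, was the measured gene not apart. In single members the list ran from 411 through a median of 1714 to 10759 CPM in library 2 and from 391 through 4784 to 16052 CPM in library 1.

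The other populations went the same way. Immediate early genes were apart and lower for 9 of 16 measured in dividing stem cells, where 1.12% of genes were, for 7 of 15 in S phase progenitors (1.68%) and for 8 of 20 in non-cycling cells (0.868%). Atf3 had a ratio of 0.360 (0.287 to 0.449) in dividing stem cells, 0.677 (0.546 to 0.837) in S phase progenitors and 0.525 (0.468 to 0.588) in non-cycling cells, none of which overlaps the interval of members. Lymphocyte barcodes had 61.1 CPM in library 2 and 66.4 CPM in library 1, a ratio of 0.920. Fos had 0.495, 0.558 and 0.736 in the 3 populations and 0.663 in lymphocyte barcodes. The list's median log2 ratio was -0.70, -0.56 and -0.48 in the 3 populations, whose numbers of measured genes were 16, 15 and 20. These ratios are of sums. Per cell the list had medians of 2819 and 5106 CPM in dividing stem cells and 1228 and 3851 CPM in S phase progenitors. In non-cycling cells they were 3066 and 4408 CPM. The S phase median of library 2 lay far below the summed 3317 CPM, so a part of the cells weighs heavily in that sum. No order of the populations is drawn. The difference between populations was not tested. The labels give both groups the same dissociation times, and the time that each pool in fact spent cannot be told apart from the animals' state.

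The rule for named genes also gave genes outside these lists. Gip, a hormone of enteroendocrine K cells, had 189 UMIs or 37.7 CPM in members of library 2 and 40 UMIs or 5.24 CPM in those of library 1, with at most 5 UMIs in 1 member. Lymphocyte barcodes had 43.0 and 6.19 CPM of Gip, so the level in members is read as background RNA. Sp100, a protein of nuclear bodies, had 43.1 CPM in members of library 2 and 10.6 CPM in those of library 1. On the lower side stood Gm47283, a gene annotated on chromosome Y of GRCm38, with 3.39 CPM in library 2 and 39.9 CPM in library 1, and it was lower in all 3 comparison populations too. Ppp1r15a, a regulatory subunit of the phosphatase that acts on the stress-phosphorylated translation factor, had 10.2 and 34.7 CPM. The others on the lower side were Atf3, Dusp1, Nr4a1, Fosb, Csrnp1 and Nr4a2 of the immediate early list, Tac1 and ccdc198.

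**Figure D4:**
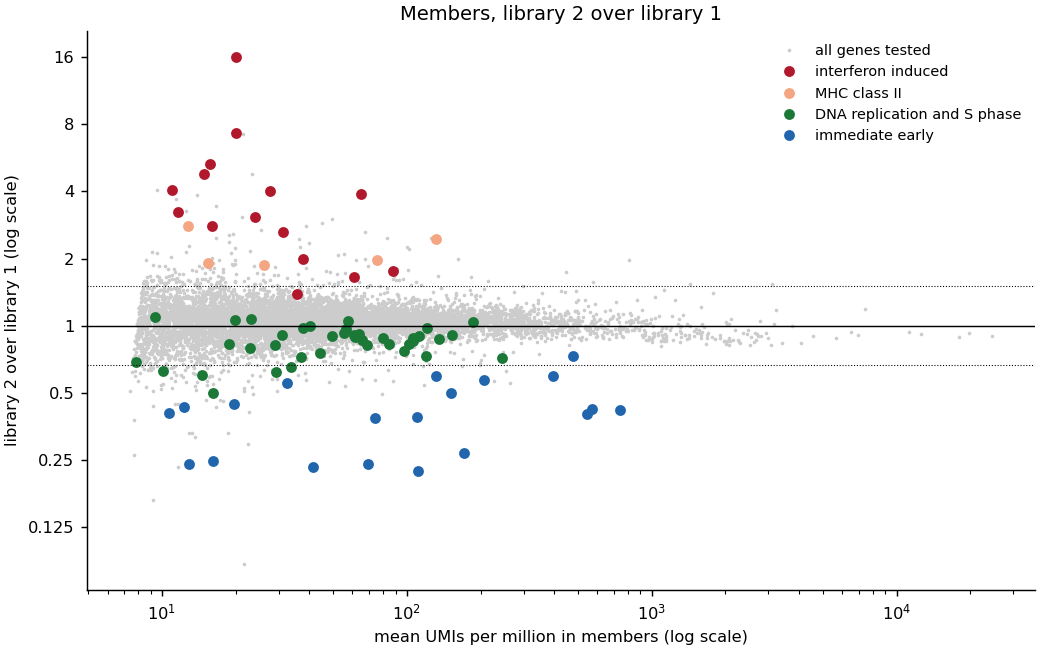
Ratio of library 2 to library 1 in members (y axis, log scale) against the mean UMIs per 1000000 (x axis, log scale) for the 8759 genes measured, with 4 gene lists coloured and dotted lines at the fold of 1.5. Interferon-induced and class II genes lie above the line at 1, immediate early genes below it, and replication genes slightly below it.

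Cell cycle genes showed small differences. On the mitotic lists 3 of 125 measured genes were apart and higher in library 2 (Cdc23, Ska2 and Kpna2) and 1 apart and lower (Psrc1), which is near the shares of all genes, 2.43% and 1.54%. The medians of the 8 lists lay between 0.09 and 0.21 on the log2 scale. Kpna2, an importin that carries spindle factors, had 117 and 64.8 CPM. Replication genes were lower in library 2 for 34 of 39 measured, with 5 apart and a median log2 ratio of -0.19. Under the other settings run, the median lay between -0.27 and -0.05. Ung had 10.8 CPM in members of library 2 and 21.6 CPM in those of library 1, a ratio of 0.499, and Pcna 205 and 286 CPM, a ratio of 0.716 (0.665 to 0.772). Among S phase progenitors Pcna had a ratio of 0.970 and the list a median of -0.04.

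Hes1, a target of Notch signalling, was apart and lower in library 2, at 163 CPM in members against 290.4 CPM in library 1, a ratio of 0.563. In the 3 comparison populations its ratio was 0.754, 0.682 and 0.718. The stem cell list, with 15 measured genes, had a median log2 ratio of -0.06 and 1 gene apart, and the median reached 0.09 without members with an S phase sum of at least 10. The 16 ribosomal protein genes were all slightly lower, with a median of -0.18 and none apart.

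**Figure D5:**
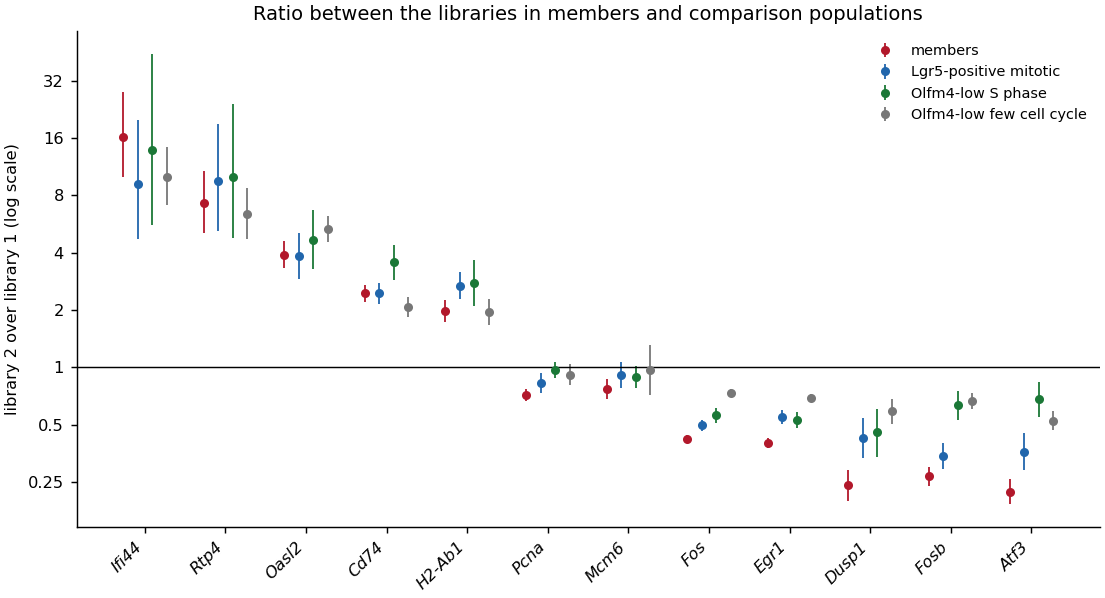
Ratio of library 2 to library 1 (y axis, log scale) with exact 95% intervals of counting error for 12 genes (x axis) in members and the 3 comparison populations. Interferon genes lie above 1 in all 4 populations, and for Fos, Egr1, Dusp1, Fosb and Atf3 the members' points lie lowest.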

How the data were processed

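The authors deposited raw UMI counts per gene and barcode in 1 matrix of 31253 features and 12756 barcodes, merged here to 31205 symbols. Per the submitters' processing notes, Cell Ranger 2.1.1 was used with build mm10. The sources do not say how cells were called. The labels' protocols name a Chromium V3 kit, but the barcodes have 27 bases, which is not that kit's length, so the chemistry is not settled. The number that ends each barcode was taken as the library. The libraries share 40 barcode sequences, 3 of them in members. Doublets were not called or removed.

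UMIs were summed per population and library and set per 1000000 UMIs (CPM). Ratios carry exact conditional 95% intervals of 2 Poisson counts, and shares Clopper-Pearson intervals. Thinning drew 5000 UMIs per cell. Genes were named as the 10 highest and 10 lowest of each comparison by the interval's bound nearest to 1, plus members of 33 gene lists. Of 516 listed genes 513 were matched, 12 through another name. The members and lists were chosen with earlier results of these data known. Gene identifiers were looked up in GENCODE M21, where 31072 of 31205 matched. Promoters came from the RefSeq table. The ratio code was tested on simulated counts. Python 3.11.15, numpy 2.4.6, scipy 1.17.1, pandas 2.3.3 and matplotlib 3.10.9 were used. Alternatives changed the marker sum, the Olfm4, Lgr5 and mitochondrial limits, the depth, the fold and the UMI minimum.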

Additional observations from a re-analysis of the deposited data

Results flagged for a closer look

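For 7 of the named and listed genes the libraries were apart in opposite directions in members and in another population, by the fold, interval and UMI minimum used throughout, and no difference between the ratios was tested. Gip had a ratio of 7.21 in members and 0.171 in S phase progenitors, with 37.7 and 5.24 CPM in members of library 2 and library 1 against 39.4 and 230.5 CPM in S phase progenitors. In S phase progenitors of library 1 the enteroendocrine list, which holds Gip, summed to 1122 CPM. Its median there was 49.1 CPM per cell and its highest 57187 CPM, so a part of the cells weighs heavily in that sum. Their part in the Gip ratio was not tested. Chgb, a granin of enteroendocrine cells, had 0.623 in members and 2.19 in non-cycling cells. Insm1, a transcription factor of endocrine cells, had 0.329 and 2.15, and Tac1, a precursor of tachykinins, had 0.233 and 1.98, in the same order. Lct, lactase of the brush border, had 1.67 in members and 0.637 in non-cycling cells. Ccl6, a chemokine, had 1.55 in members and 0.557 in S phase progenitors. Zfp367, a zinc finger protein, had 0.579 in members and 1.56 in dividing stem cells. For Chgb, 10 members held 76.5% of the UMIs of library 1, and the part of these few cells in the ratio was not tested.

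Outside the filters on barcodes, 37 barcodes met every other limit of the rule, 27 in library 2 and 10 in library 1. Of these, 30 were over the mitochondrial limit and 12 under the UMI minimum.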

How the results depend on the processing

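No paired analysis was possible because each group is 1 library and no label ties a library number to a group. Ratios of single genes under the alternatives were computed only for the 10 highest and 10 lowest genes between libraries. None of these ratios, and no median of a list with most of its genes apart, changed sign under the alternatives run. Of 115 list medians, 20 did, 17 of them with a value within 0.15 of 0. The exceptions were the enteroendocrine list between libraries (-0.29, up to 0.49 with at most 10% mitochondrial UMIs), and against S phase progenitors the absorptive list (-0.34, 0.74 with an S phase sum of at least 20) and the immediate early list (-0.21, up to 0.22 without the cells in the top 10% of UMIs); the cause was not tested. The share of members in library 2, 8.74%, came to 13.0% with a marker sum of at least 5 UMIs, 5.59% with at least 20, 6.73% with at least 0.1% of UMIs, 7.05% with Olfm4 under 0.1%, 10.8% with Olfm4 under 1% and 2.86% with each barcode thinned to 5000 UMIs. In library 1, 12.6% came to 17.9%, 7.60%, 8.76%, 10.2%, 15.99% and 3.62% under the same settings and to 14.15% with no Lgr5 limit. The ratio of the shares stayed between 0.663 and 0.792.

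Counts of genes apart moved by over 1.5 times under these settings. At a fold of 2, members of library 2 had 51 genes higher and 36 lower than library 1; members had 170 higher and 174 lower than dividing stem cells, 151 and 26 than S phase progenitors, and 615 and 417 than non-cycling cells. With cells thinned to 5000 UMIs the counts were 116 and 63, 252 and 140, 109 and 24, and 612 and 536 in the same order. A minimum of 200 UMIs gave 123 higher and 76 lower between libraries, 333 lower than dividing stem cells and 49 lower than S phase progenitors. A minimum of 50 UMIs gave 205 lower between libraries. An S phase sum of at least 20 gave 164 lower than S phase progenitors. Of the named genes' ratios between libraries under the alternatives, 158 stayed within the spread and 8 moved. Alternatives that left out members with many S phase UMIs or with a barcode sequence shared by both libraries, and the lymphocytes with no UMI minimum, were chosen after seeing the data. Depth limits genes under 100 UMIs, for which no call was made.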

Other observations

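A few regulators of the G1 phase differed between members and dividing stem cells beside Cdkn2b. Of 14 measured on that list, 3 were apart and higher (6.34% of all genes were) and 1 apart and lower (7.4%). The list had a median log2 ratio of -0.05, so it did not differ as a whole. Cdkn1a, the p21 inhibitor of cyclin-dependent kinases, had 45.9 CPM in members of library 2 and 64.3 CPM in those of library 1, against 18.0 and 22.3 CPM in dividing stem cells. Cdk6, a G1 kinase, had 38.1 and 47.4 CPM in members against 184 and 176 CPM. Rb1, the retinoblastoma protein that Cdk6 phosphorylates, had 71.1 and 73.6 CPM against 43.4 and 30.4 CPM. Non-cycling cells had 212 and 181 CPM of Cdkn1a, so members stood between them and dividing stem cells.

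Transcription factors of enterocytes and gut regions differed both ways between members and dividing stem cells. Of 14 measured, 4 were apart and higher (6.34% of all genes were) and 2 apart and lower (7.4%), with a median log2 ratio of 0.01. Hnf4g, a nuclear receptor of enterocytes, had 83.5 and 92.3 CPM in members against 28.6 and 34.7 CPM in dividing stem cells, and 175 and 207 CPM in non-cycling cells. Maf had 50.9 and 39.7 CPM in members against 6.88 and 8.57 CPM in dividing stem cells. Creb3l3, a factor of lipid metabolism, had 28.2 and 32.2 CPM against 12.2 and 12.4 CPM. Hnf4a, the close relative of Hnf4g, was not apart, at 607 and 547 CPM in members against 629 and 625 CPM in dividing stem cells. Pparg was the other one apart and higher, at 20.97 and 19.6 CPM against 10.1 and 10.3 CPM. Ehf, an epithelial factor, was apart and lower, at 184 and 189 CPM in members against 395.5 and 402 CPM.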
